A study of Mus musculus and Homo sapiens with 34 samples.

Results

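The genes described here are 44 genes of DNA replication and S phase, followed through every comparison in a set of 34 RNA sequencing libraries from mouse and human lung adenocarcinoma cultures. They were chosen by name: a row was taken when its gene symbol was on the list (in upper case in the human tables), and all 44 were listed and tested in all 7 count tables, which list between 16553 and 26245 genes. The libraries form 17 groups of 2. Mouse 3154 organoids carry p53frt, Rosa-FSF-CreERT2 and Hnf4aflox alleles, among others. In them 4-hydroxytamoxifen (4OHT) activates CreERT2, a Cre recombinase expressed from the Rosa locus, which removes floxed Hnf4a, the gene of the lineage regulator HNF4α, while ethanol is the control. In the 2-week experiment they were exposed to ethanol or 2 mM 4OHT for 2 days and harvested 2 weeks later. In the 48-hour experiment ethanol and 4OHT organoids each received vehicle or 3 nM MRTX1133, a small-molecule inhibitor, for 48 hours. Mouse 1027B organoids and the mouse 3311 line carry p53frt, Rosa-FSF-CreERT2, Foxa1flox and Foxa2flox alleles, among others, and no treatment that deletes Foxa1 or Foxa2 is named for either. Over 48 hours, 1027B was kept in vehicle, in trametinib at 10 nM (a blocker of MEK, the kinase between RAF and ERK) or in MRTX1133 at 20 nM, while 3311 was kept in vehicle or in trametinib at 50 nM. The human adenocarcinoma lines H358 and H1651 were compared in the same way, at a trametinib dose of 20 nM and over the same 48 hours. A derivative of H1651 with a lentiviral HNF4α transgene under doxycycline control was grown for 7 days with the inducer at 1 µg/mL or in its absence. Each mouse culture is represented by a single line, and the labels do not say that replicates came from separate cultures or animals, so a p-value measures the spread between these libraries, which may be technical.

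Eukaryotic cells load the MCM2-7 helicase onto origins in G1 with ORC, CDC6 and CDT1 (licensing), switch it on at the start of S phase with CDC45, the GINS complex and MCM10 (firing), and copy DNA with primase, the replicative polymerases, the sliding clamp PCNA and its loader RFC. Ribonucleotide reductase, thymidylate synthase, thymidine kinase and dUTPase supply the nucleotides, and CAF-1 and UHRF1 restore chromatin and DNA methylation behind the fork. Many of these genes are transcribed by E2F factors once cyclin D and cyclin E kinases inactivate RB, and growth factor signalling through MEK and ERK is a main input to cyclin D. In a bulk library, fewer cycling cells and less of an RNA in each cell cannot be told apart.

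The promoters of these genes are known for E2F sites, so the RefSeq promoter windows (GRCm38.p6, 250 bases before to 50 after the transcription start) were searched on both strands for TTTCCCGC, TTTCGCGC, TTTGCCGC and TTTGGCGC, 4 forms of the E2F consensus whose matches may overlap each other. Of the 44 genes, 37 had a window, and 15 of these, or 40.5%, held a match, against 2.60% of all 27025 genes with a promoter window and 4.67% of the 10409 windows of genes tested in 1027B. In 9 of these a match lay before the RefSeq start of its window. The windows of Mcm5 and Gins3 are not printed here, and the other 7, from genes of licensing, synthesis and chromatin, are shown. Capitals mark the matches and each line reads 5′ to 3′ on the strand of the gene.
Mcm6, minus strand, chr1:128359734-128359826: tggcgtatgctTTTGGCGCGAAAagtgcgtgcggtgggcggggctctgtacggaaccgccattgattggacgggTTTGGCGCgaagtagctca
Mcm7, minus strand, chr5:138172030-138172059: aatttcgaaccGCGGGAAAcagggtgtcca
Orc1, plus strand, chr4:108579416-108579445: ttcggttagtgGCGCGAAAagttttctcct
Cdc6, plus strand, chr11:98908002-98908031: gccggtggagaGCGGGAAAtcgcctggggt
Rfc3, minus strand, chr5:151651209-151651229: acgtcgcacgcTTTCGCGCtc
Pola1, minus strand, chrX:93632275-93632304: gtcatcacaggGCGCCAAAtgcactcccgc
Uhrf1, plus strand, chr17:56304117-56304146: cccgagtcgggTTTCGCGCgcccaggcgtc

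Mcm6 held 3 matches, and 2 of these overlap in the first run of capitals. GENCODE M21 starts some of these genes farther 5′ than the RefSeq start of the window, and by its models the matches shown before that start lie inside the gene for Orc1, Cdc6, Mcm7, Rfc3 and Uhrf1 and outside it for Mcm6 and Pola1. Uhrf1 and Mcm7 each have a further RefSeq start whose window held no match. The letters TTTGAA, the core of the CHR element known from mitotic genes, stood in 13.5% of the members' windows, in 75.0% of those of a list of mitosis genes and in 20.2% of all windows, while CCAAT stood in 62.2%, 83.3% and 41.1%. Among windows of genes tested in 1027B the shares were 14.4% for TTTGAA and 42.7% for CCAAT. A match is a string of letters and not a measured binding site. With the human tables no promoter sequence was used.

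Levels can be compared between genes per length, as RPKM (reads scaled to exon length and library size) from the GENCODE M21 gene models. In 1027B vehicle organoids Pcna was the highest member at 151.6 ± 3.13 RPKM (SD, n = 2), followed by Gins4 at 43.8 ± 2.33 and Mcm7 at 42.7 ± 1.04, and the last 2 differed by less than their spread. At the lower end stood Clspn at 3.20 ± 0.218 and Gins3 at 3.01 ± 0.122 RPKM, again within their spread. Pcna also ranked first in the controls of the other 3 mouse tables, at 104.8 ± 3.03 in 3154 at 2 weeks, 118.1 ± 31.7 in 3154 at 48 hours and 43.0 ± 7.01 in 3311. Either Clspn or Gins3 ranked last in each. From here on levels are CPM, counts scaled to library size with factors that align the libraries of a table, and changes are log2 fold changes with their standard errors.

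Total counts ran from 19692517 to 45284286 per library, and replicates of every group differed by more than counting noise. The 5 epithelial markers each exceeded a mean of 1 CPM in all groups. A gene was called when its Benjamini-Hochberg adjusted p was under 0.05 over all genes tested in its table by edgeR's quasi-likelihood test. With 2 libraries against 2, an exact permutation test cannot go below a two-sided p of 0.333. Hnf4a was lower after 4OHT in both 3154 experiments, at 315 and 427 CPM after ethanol and 53.5 and 68.0 CPM after 4OHT at 2 weeks, and at 221 and 230 CPM against 49.4 and 50.4 CPM under vehicle in the 48-hour experiment.

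**Figure D1:**
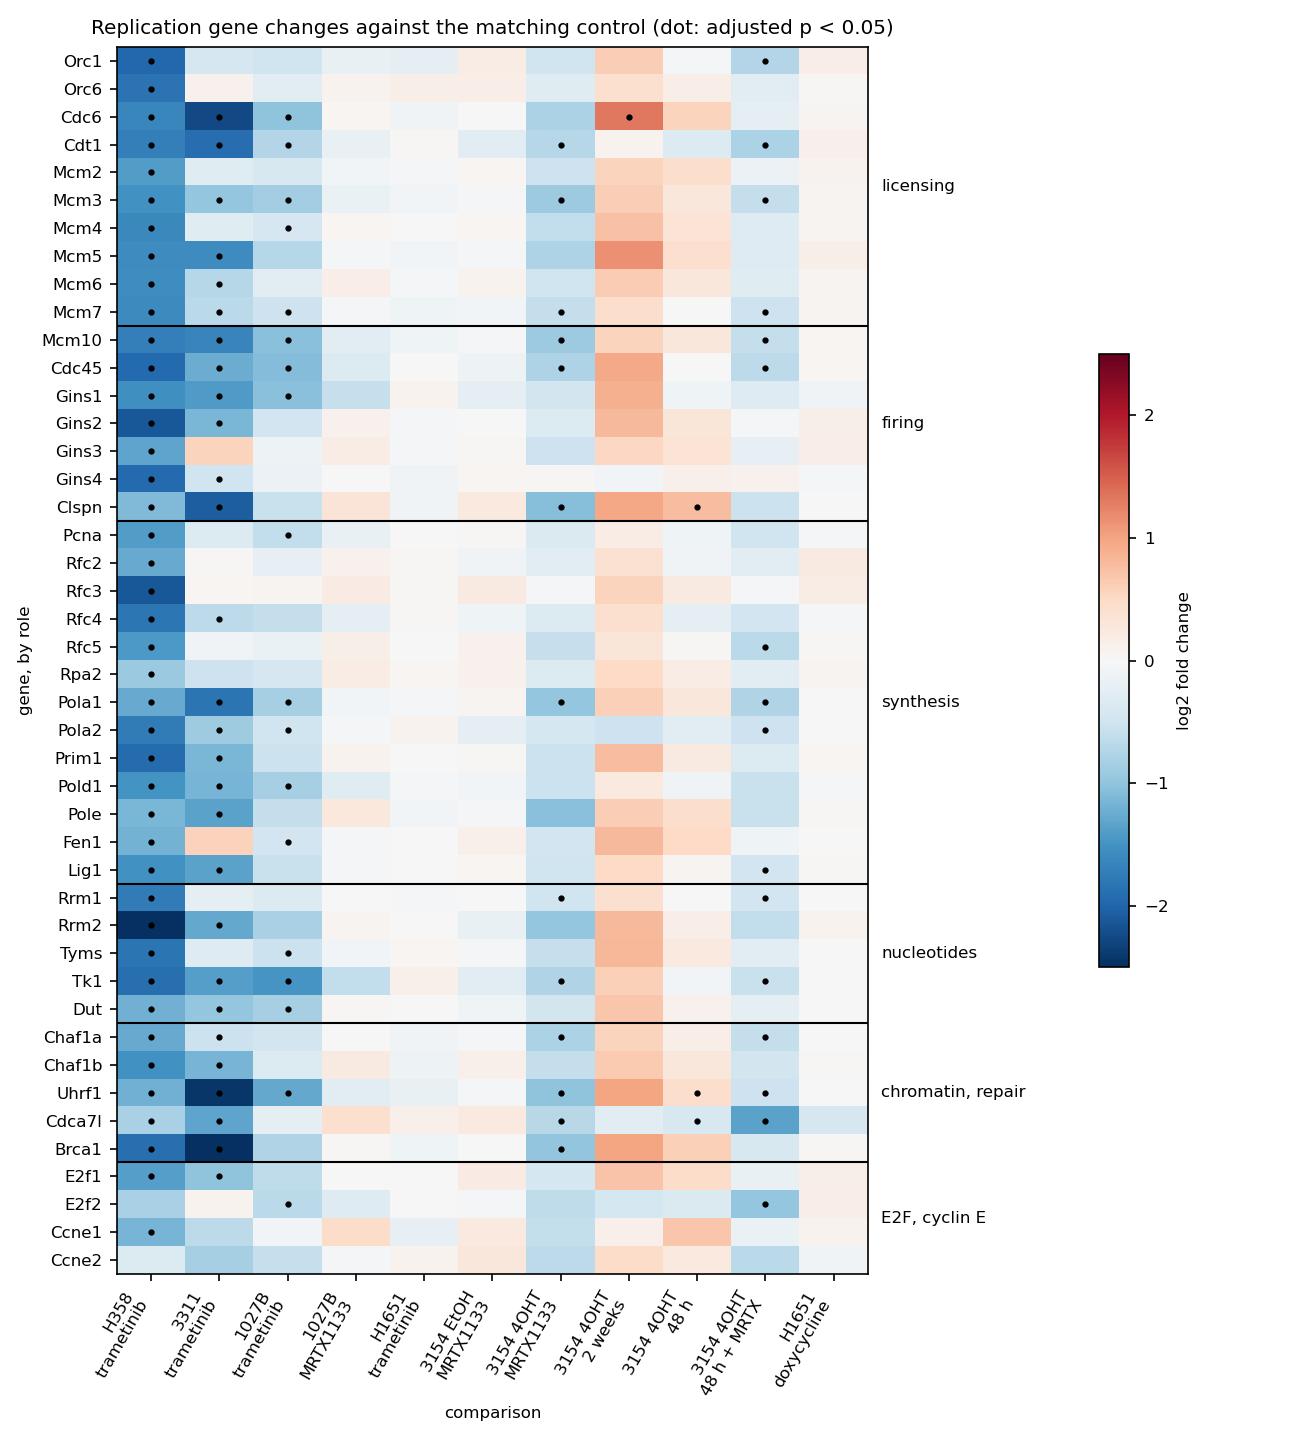
Log2 fold change of each of the 44 genes (rows, grouped by role) in the comparisons of a treatment with its control (columns), with a dot where the adjusted p is under 0.05. The H358 trametinib column is dark blue nearly throughout with 42 dots, the H1651 trametinib column is pale with none, and MRTX1133 in 3154 gives 13 dots after 4OHT and none after ethanol.

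In H358, a human adenocarcinoma line, 42 of the 44 genes were called lower with trametinib and none higher, beside 23.2% of 18972 genes tested that were called lower. All 44 estimates were below 0, beside 49.1% of all genes, and 40 genes fell at least 2-fold, beside 10.2%. The median change was -1.53, against 0.02 over all genes tested. Every role took part: all 10 licensing genes, all 7 firing genes, all 13 synthesis genes, all 5 nucleotide genes and all 5 chromatin and repair genes fell. Among the 4 E2F and cyclin E genes, E2F1 and CCNE1 fell and E2F2 and CCNE2 were not called.

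In licensing, CDC6, the ATPase that helps load the helicase, stood at 73.3 and 97.5 CPM in vehicle and at 19.5 and 35.8 CPM with trametinib, a change of -1.64 ± 0.26 (SE; adjusted p 0.00151). ORC1, the large subunit of the origin recognition complex, stood at 24.5 and 34.1 against 5.95 and 9.30 CPM (-1.96 ± 0.24, adjusted p 0.000414), and CDT1, which delivers MCM2-7, at 52.9 and 63.4 against 14.8 and 21.1 CPM (-1.71 ± 0.18, adjusted p 0.000223). The helicase subunit MCM5 stood at 121 and 155 against 39.5 and 53.3 CPM (-1.58 ± 0.17, adjusted p 0.000249). For all of these the treated libraries lay below both vehicle libraries. Of the firing genes, GINS2 went from 64.8 and 89.8 to 12.9 and 22.9 CPM (-2.13 ± 0.26, adjusted p 0.000434) and CDC45 from 29.9 and 42.8 to 7.50 and 11.7 CPM (-1.94 ± 0.24, adjusted p 0.000447).

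The fall of RRM2, the regulated subunit of ribonucleotide reductase, had the largest estimate: 228 and 308 CPM in vehicle became 35.1 and 60.1 CPM, or 17.8% of the vehicle level (-2.50 ± 0.25, adjusted p 0.000158). Thymidylate synthase (TYMS) went from 97.8 and 116 to 22.0 and 38.2 CPM (-1.84 ± 0.23, adjusted p 0.000480). In synthesis, the clamp loader subunit RFC3 went from 69.1 and 88.3 to 13.7 and 22.6 CPM (-2.13 ± 0.23, adjusted p 0.000225) and the clamp PCNA from 198 and 264 to 71.4 and 103 CPM (-1.41 ± 0.20, adjusted p 0.000767). BRCA1, a repair protein that also protects stalled forks, went from 73.6 and 81.6 to 18.4 and 23.9 CPM (-1.88 ± 0.15, adjusted p 5.36e-05). The transcription factor E2F1 fell from 49.8 and 59.6 to 16.8 and 25.8 CPM (-1.37 ± 0.20, adjusted p 0.000980). CCNE2, a cyclin E that activates CDK2, was the least changed at 22.7 and 35.5 against 19.4 and 26.3 CPM, with overlapping groups (-0.35 ± 0.23, adjusted p 0.236), and E2F2 stood at 9.63 and 13.4 against 4.45 and 8.87 CPM (-0.82 ± 0.31, adjusted p 0.0619).

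Of 42 further replication genes 39 fell and none rose, with DBF4, the activator of the firing kinase CDC7, at -2.37 and the histone chaperone ASF1B at -2.09. All 30 mitosis genes fell, with a median of -2.48, with AURKB, the chromosomal passenger kinase, at -2.94. Among regulators of cell cycle entry 18 of 28 tested fell, with the repressor E2F7 at -2.37, and 4 rose, with the CDK inhibitor CDKN1A at 0.94. The 6 ERK feedback genes fell, DUSP6 from 158 and 177 to 0.645 and 1.22 CPM. Summed fibroblast markers moved as well, from 41.2 to 50.0 CPM in vehicle to 246 to 348 CPM with trametinib, mostly COL1A1 and LUM, while COL1A2 and DCN were at 0 in vehicle and at 0.408 and 0.236 CPM (COL1A2) and 0.430 and 0.314 CPM (DCN) with trametinib. The endothelial cadherin CDH5 rose from 0.570 and 0.508 to 8.04 and 4.71 CPM (adjusted p 0.000135), while the endothelial PECAM1 and TEK stayed below 1 CPM in all 4 libraries and the receptor KDR stood at 10.4 and 13.2 against 12.8 and 16.0 CPM, without a call. All 5 epithelial markers changed, KRT18 (-1.58), KRT8 (-1.04) and EPCAM (-0.68) falling and CDH1 (1.05) and NKX2-1 (0.47) rising. Of the leukocyte markers PTPRC rose, to 0.731 and 0.589 CPM, and CD68 and CSF1R were not called. The part of these markers in the result was not tested.

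In the mouse 3311 line trametinib lowered 28 of the 44 genes and raised none by the test, beside 19.6% of 15224 genes called lower, with a median of -0.93. The fall was uneven within roles. In licensing, Cdc6 (ENSMUSG00000017499, chromosome 11, 98907801 to 98923940) went from 9.07 and 8.76 to 1.61 and 2.13 CPM (-2.25 ± 0.29, adjusted p 0.00193), Cdt1 from 75.9 and 58.1 to 17.1 and 18.6 CPM (-1.91 ± 0.18, adjusted p 0.000738) and Mcm5 (ENSMUSG00000005410, chromosome 8, 75109569 to 75128439) from 22.3 and 21.8 to 6.67 and 8.22 CPM (-1.57 ± 0.21, adjusted p 0.00200). Mcm2, another subunit of the same helicase, stood at 39.2 and 38.1 against 32.4 and 30.3 CPM and was not called (-0.30 ± 0.14, adjusted p 0.132). The difference between Mcm2 and Mcm5 was not itself tested.

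Firing genes fell in 6 of 7 cases. Clspn, the checkpoint mediator claspin, went from 3.98 and 4.22 to 0.753 and 1.22 CPM (-2.05 ± 0.39, adjusted p 0.00728), Cdc45 from 10.6 and 7.65 to 3.62 and 4.03 CPM (-1.25 ± 0.28, adjusted p 0.0132), and Gins2 from 10.4 and 9.04 to 3.73 and 5.10 CPM (-1.14 ± 0.27, adjusted p 0.0166). Synthesis genes fell in 7 of 13 cases, and Pcna was not among them at 91.4 and 115 against 73.0 and 89.3 CPM (-0.35 ± 0.17, adjusted p 0.146). All 5 chromatin and repair genes fell. Brca1 went from 42.4 and 32.2 to 6.35 and 6.81 CPM (-2.50 ± 0.21, adjusted p 0.000544) and Uhrf1 (ENSMUSG00000001228, chromosome 17, 56303321 to 56323486), which recruits the maintenance methyltransferase to newly copied DNA, from 42.4 and 39.1 to 7.38 and 7.61 CPM (-2.44 ± 0.17, adjusted p 0.000380). Among nucleotide genes Rrm2 went from 7.17 and 10.5 to 3.26 and 4.03 CPM (-1.27 ± 0.30, adjusted p 0.0162) and Tyms stood at 11.6 and 14.6 against 11.6 and 9.43 CPM (-0.32 ± 0.23, adjusted p 0.306). E2f1 fell from 17.6 and 30.4 to 10.9 and 12.9 CPM (-1.01 ± 0.28, adjusted p 0.0285), whereas E2f2 stood at 13.0 and 17.1 against 13.9 and 18.2 CPM (0.09 ± 0.23, adjusted p 0.782).

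Estimates were above 0 for 6 members in 3311, and none of these was called. The 2 highest, named after their values were seen, were Fen1, the flap endonuclease of lagging strand synthesis, at 10.1 and 10.2 against 15.2 and 14.9 CPM (0.57 ± 0.20, adjusted p 0.0546), and Gins3 at 3.31 and 2.87 against 4.48 and 4.64 CPM (0.56 ± 0.30, adjusted p 0.170). The exons of Fen1 lie opposite another gene over 84.2% of their bases, those of Gins2 over 67.3% and those of Chaf1a over 52.5%, and the strand setting of the counting is not given in the sources used here, so the counts of these genes may hold reads of their neighbours. Of the 42 further replication genes 20 fell and 2 rose, led by Ticrr (-3.67), the firing factor known as Treslin, and Cdc7 (-2.01). All 30 mitosis genes fell, with a median of -3.10, of which Mki67 changed by -4.09. The leukocyte marker sum stood at 9.55 to 15.7 CPM in vehicle and 21.8 to 28.6 CPM with trametinib, with Csf1r at 4.68 and 11.7 against 20.2 and 27.7 CPM. The macrophage marker Cd68 went the other way, at 4.87 and 4.06 against 1.54 and 0.951 CPM, and the pan-leukocyte Ptprc was at 0 in all 4 libraries. Summed fibroblast markers went from 21.5 to 26.2 CPM in vehicle to 17.3 to 17.5 CPM, with Pdgfra lower at 13.7 and 13.5 against 7.71 and 7.46 CPM, Col1a1 higher at 2.08 and 1.35 against 6.70 and 3.92 CPM, and Col1a2 at 0 throughout. Of the 5 epithelial markers Krt18 fell (-1.43) and the others were not called. The part of these markers in the result was not tested.

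**Figure D2:**
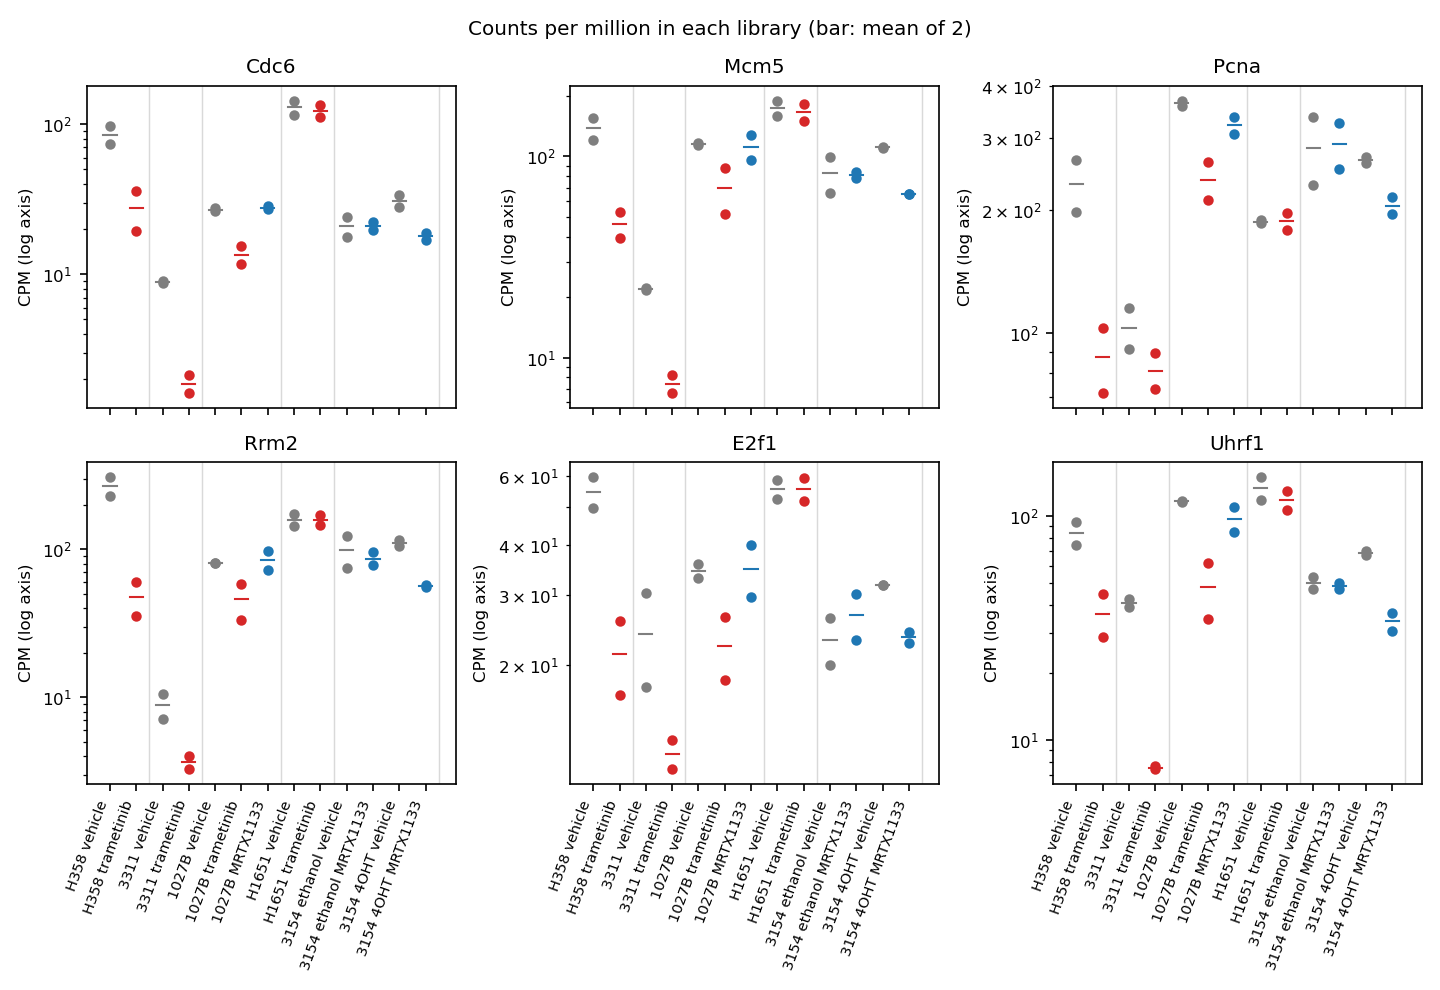
CPM (log axis) of 6 of the genes in each library of the inhibitor experiments, with 1 point per library and a bar at the mean of 2 libraries (gray vehicle, red trametinib, blue MRTX1133). In H358 and 3311 the trametinib points of Cdc6, Mcm5, Rrm2, E2f1 and Uhrf1 lie below both vehicle points, in H1651 red and gray points overlap, and in 1027B the blue points of Cdc6 lie at 27.2 and 28.4 CPM beside vehicle at 27.6 and 26.4 CPM.

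In 1027B organoids trametinib lowered 18 of the 44 genes and raised none, beside 13.2% of 14555 genes called lower, with a median of -0.55. Replicates with the same number deviate together in this table, and with the replicate number as a block 33 were called lower, beside 23.0% of all genes. Called genes came from every role: 5 of 10 in licensing, 3 of 7 in firing, 5 of 13 in synthesis, 3 of 5 in nucleotide supply, 1 of 5 in chromatin and repair and 1 of 4 in the E2F and cyclin E group. At least 2-fold falls were called for 5 genes, beside 5.75% of all genes.

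Thymidine kinase, Tk1, which salvages thymidine, had the largest estimate, going from 66.9 and 78.8 to 17.1 and 35.0 CPM (-1.48 ± 0.35, adjusted p 0.0226). Uhrf1 went from 116 and 117 to 34.6 and 61.4 CPM (-1.28 ± 0.26, adjusted p 0.0144), Cdc45 from 31.6 and 32.2 to 12.6 and 17.5 CPM (-1.09 ± 0.24, adjusted p 0.0194) and Mcm10, which helps the loaded helicase start to unwind, from 46.0 and 49.7 to 19.9 and 26.2 CPM (-1.06 ± 0.17, adjusted p 0.00703). Cdc6 went from 27.6 and 26.4 to 11.7 and 15.3 CPM (-0.9996 ± 0.16, adjusted p 0.00667) and Cdt1 from 54.9 and 57.1 to 29.6 and 37.4 CPM (-0.74 ± 0.15, adjusted p 0.0132). In these 6 genes both treated libraries lay below both vehicle libraries, and trametinib replicate 1 was the lower of the pair each time. Pcna fell less, from 369 and 359 to 211 and 262 CPM (-0.62 ± 0.13, adjusted p 0.0148), as did E2f2, from 29.0 and 29.3 to 16.7 and 19.6 CPM (-0.68 ± 0.16, adjusted p 0.0204). Tyms went from 36.9 and 40.1 to 23.1 and 30.3 CPM (-0.53 ± 0.16, adjusted p 0.0491), a call lost under RLE scaling, without the count filter and with only the 2 groups compared.

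Mcm5 stood at 117 and 114 against 52.0 and 87.9 CPM (-0.72 ± 0.25, adjusted p 0.0730), Rrm2 at 80.2 and 81.3 against 33.5 and 58.3 CPM (-0.82 ± 0.26, adjusted p 0.0604) and E2f1 at 33.2 and 35.9 against 18.3 and 26.4 CPM (-0.63 ± 0.22, adjusted p 0.0735), so that these groups did not overlap while the genes missed the threshold without the block. Non-overlapping, lower groups were seen for 38 of the 44 genes, beside 34.3% of all genes. Ccne1, cyclin E1, stood at 15.5 and 11.7 against 12.4 and 13.5 CPM (-0.07 ± 0.20, adjusted p 0.808). Mitosis genes fell in 26 of 30 cases (30 with the block), with a median of -1.35. Further replication genes fell in 14 and rose in 1 of 42 (29 and 1 with the block), led by Pole2 (-1.50), a subunit of polymerase epsilon. Of the 28 entry regulators tested 6 fell and 3 rose (12 and 4 with the block), with Mybl2, a transcription factor of the G1/S and G2/M programmes, at -1.79. Of the 5 epithelial markers Cdh1 (0.56) and Nkx2-1 (0.43) rose with trametinib and the others were not called, while with the block Epcam (-0.42, adjusted p 0.00244) and Krt18 (-0.36, adjusted p 0.00797) were also called lower. The leukocyte marker sum was 7.80 to 8.28 CPM in vehicle and 6.44 to 7.17 CPM with trametinib, within which Csf1r rose from 0.484 and 0.379 to 2.94 and 2.29 CPM and Ptprc fell from 1.79 and 1.08 to 0.223 and 0.187 CPM, and with the block Cd68 was called lower too (-0.63, adjusted p 0.0411). Fibroblast markers summed to 1.69 CPM at most in both groups. The part of these markers in the result was not tested. The count of 18 dropped to 6 without vehicle replicate 1 (beside 16.5% of all genes called in either direction), to 3 without vehicle replicate 2 (14.7%) and to 3 without trametinib replicate 1 (9.29%), and the median moved to -0.36 without trametinib replicate 1. Trametinib was given at 10 nM here, at 20 nM in H358 and H1651 and at 50 nM in 3311, so the sizes of these falls are not compared between cultures.

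MRTX1133 at 20 nM left no member called in the same 1027B experiment by edgeR's quasi-likelihood test, beside 6.27% of all genes called, and the median change was -0.00. At an unadjusted p under 0.05 there were 2 members, beside 23.2% of all genes, and DESeq2 called 0. Cdc6 stood at 27.2 and 28.4 CPM with MRTX1133 (0.04 ± 0.16, adjusted p 0.911) and Mcm5 at 95.9 and 128 CPM (-0.04 ± 0.25, adjusted p 0.940), both overlapping the vehicle values given above. Tk1 had the lowest estimate at 37.6 and 58.1 CPM, below both vehicle libraries (-0.61 ± 0.34, adjusted p 0.342). With the replicate block 3 members were called, beside 24.1% of all genes. These were Gins1 (-0.58, adjusted p 0.0369) and Tk1 (-0.64, adjusted p 0.0208), both lower, and Cdca7l, a MYC-associated chromatin protein, higher (0.41, adjusted p 0.0147). In the same libraries the 30 mitosis genes had a median of -0.30, and none was called without the block (3 at an unadjusted p under 0.05) while 14 fell with it. Of the 42 further replication genes 1 fell, and 2 with the block. Of the 28 entry regulators 1 rose, and with the block 5 fell and 4 rose. Of the 6 ERK feedback genes 4 fell, and 6 with the block, Dusp6 going from 246 and 296 to 114 and 123 CPM. The epithelial markers Cdh1 (0.36) and Nkx2-1 (0.27) were called higher with the block only, and their part in the result was not tested. Dusp6 stood at 30.4 and 47.5 CPM with trametinib. The median changed sign without MRTX1133 replicate 1, to 0.10.

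Set against each other in 1027B, MRTX1133 and trametinib gave higher estimates under MRTX1133 for all 44 genes, beside 50.9% of all genes, with a median of 0.53. None was called by edgeR's quasi-likelihood test, and neither was any of the 14555 genes (0%). At an unadjusted p under 0.05 there were 35 members, all higher under MRTX1133, beside 8.38% of all genes, DESeq2 called 8, beside 4.89% of all genes in either direction, and with the replicate block 30 were called higher, beside 7.75% of all genes. The 4 genes with the smallest p were Cdc6 (1.04 ± 0.16, adjusted p 0.0819), Cdca7l (0.66 ± 0.14, adjusted p 0.126), Mcm10 (0.79 ± 0.17, adjusted p 0.130) and Mcm7 (0.48 ± 0.11, adjusted p 0.141), and their adjusted p with the block ran from 0.00300 for Cdc6 to 0.00467 for Mcm7. With the block all 30 mitosis genes and 24 of the 42 further replication genes were called higher under MRTX1133 as well, as were the 6 ERK feedback genes. Of the markers, 1 of 5 epithelial ones was called higher and 1 of 3 leukocyte ones lower with the block. Their part in the result was not tested. This comparison shares its libraries with both of the preceding ones, so it adds no separate measurement. MRTX1133 and trametinib were given at different doses and bind different proteins.

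In H1651, given 20 nM trametinib for 48 hours like H358, no member was called, and no gene in the table was (0%, edgeR's quasi-likelihood test). None of the 44 reached an unadjusted p under 0.05 either, beside 3.27% of all genes, and DESeq2 called 0. Estimates ran from -0.25 to 0.14 with a median of -0.01. CDC6 stood at 116 and 144 CPM in vehicle and 111 and 134 CPM with trametinib, MCM5 at 158 and 189 against 151 and 182 CPM, PCNA at 186 and 188 against 179 and 197 CPM, and RRM2 at 144 and 172 against 145 and 169.7 CPM. In each of these genes the groups overlapped. The lowest estimate was that of ORC1, from 34.7 and 36.6 to 28.3 and 31.7 CPM (-0.25 ± 0.10, adjusted p 0.999). Standard errors of the members were between 0.08 and 0.18. DUSP6, a feedback phosphatase that ERK induces, stood at 49.8 and 51.8 CPM in vehicle and 5.27 and 7.46 CPM with trametinib, and it was not called in this table either. Fibroblast markers summed to 433 to 534 CPM in vehicle and 508 to 649 CPM with trametinib. Their part in the result was not tested.

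The difference between the responses of the 2 human lines was tested in 1 fit of both tables. For 40 of the 44 genes the change in H1651 was higher than in H358, beside 9.86% of 21188 genes called in that direction, and the median difference was 1.47. The 4 genes with the smallest p were the primase subunit PRIM1 (1.91 ± 0.15, adjusted p 0.000355), BRCA1 (1.75 ± 0.17, adjusted p 0.000641), the polymerase delta catalytic subunit POLD1 (1.44 ± 0.15, adjusted p 0.000783) and the clamp loader subunit RFC4 (1.81 ± 0.20, adjusted p 0.000939). PRIM1 stood at 34.0 and 37.5 CPM in H358 vehicle and 8.94 and 9.81 CPM with trametinib, and at 43.8 and 45.3 against 43.3 and 46.2 CPM in H1651. All 30 mitosis genes and 34 of the 42 further replication genes were called in the same direction. Cell line and table cannot be told apart.

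**Figure D3:**
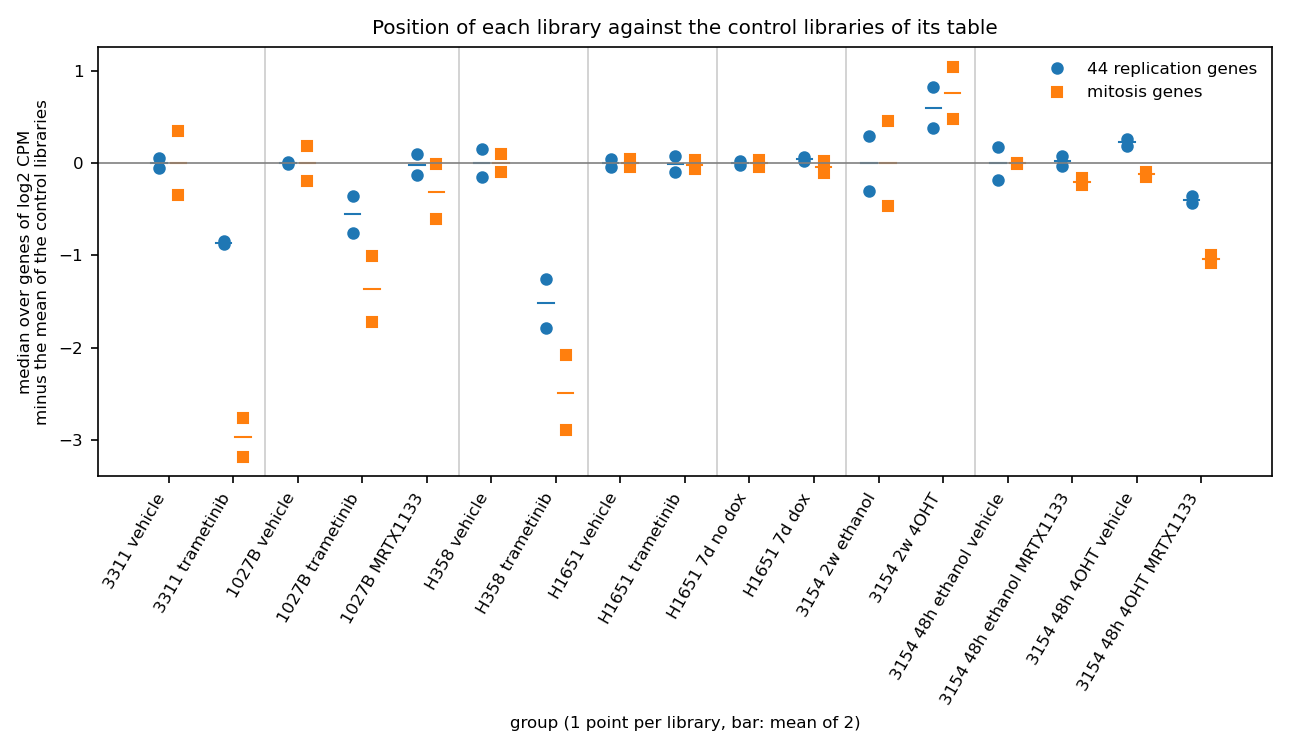
Position of each library: the median over the 44 replication genes (circles) and over the mitosis genes (squares) of log2 CPM minus the mean of the control libraries of its table, with 1 point per library and a bar at the mean of 2. For the replication genes the H358 trametinib libraries lie at -1.79 and -1.25, the H1651 trametinib libraries at -0.10 and 0.07, and the ethanol libraries of the 2-week experiment at 0.30 and -0.30.

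In 3154 organoids the response to 3 nM MRTX1133 was measured after ethanol and after 4OHT. After ethanol no member was called, beside 0.349% of all 15458 genes, none reached an unadjusted p under 0.05, beside 11.8% of all genes, DESeq2 called 0, and the median change was 0.01. Uhrf1 stood at 53.5 and 47.4 CPM in vehicle and 50.0 and 47.3 CPM with MRTX1133, and Mcm5 at 65.9 and 99.8 against 78.1 and 83.6 CPM, in both cases with overlapping groups. Clspn had one of the higher estimates at 19.2 and 17.5 against 22.9 and 20.4 CPM (0.24 ± 0.17, adjusted p 0.657), and Cdt1 the lowest at 64.0 and 68.5 against 58.1 and 52.3 CPM (-0.26 ± 0.12, adjusted p 0.460). Replicates stood farther apart after ethanol than after 4OHT. The 44 genes summed to 2210 and 2808 CPM in ethanol vehicle and to 2719 and 2777 CPM in 4OHT vehicle. With MRTX1133 the sums were 2369 and 2633 CPM after ethanol and 1837 and 1844 CPM after 4OHT.

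After 4OHT, the same dose lowered 13 of the 44 genes and raised none, beside 2.54% of all genes called lower, and 43 estimates were below 0, beside 50.3%, with a median of -0.58. Clspn went from 33.8 and 28.4 to 12.9 and 16.8 CPM (-1.06 ± 0.17, adjusted p 0.0229), Uhrf1 from 67.0 and 70.1 to 30.8 and 37.1 CPM (-1.01 ± 0.14, adjusted p 0.0179) and Brca1 from 37.5 and 34.1 to 15.4 and 20.7 CPM (-0.99 ± 0.22, adjusted p 0.0450). Pola1, the catalytic subunit of the priming polymerase alpha, went from 42.9 and 41.1 to 20.5 and 22.5 CPM (-0.97 ± 0.17, adjusted p 0.0266), and Cdt1 from 51.6 and 52.2 to 32.4 and 31.2 CPM (-0.71 ± 0.12, adjusted p 0.0263). Both treated libraries of these genes lay below both vehicle libraries.

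Several uncalled members had estimates of the same size after 4OHT. Rrm2 stood at 106 and 115 against 57.1 and 55.4 CPM (-0.97 ± 0.23, adjusted p 0.0530), Cdc6 at 28.1 and 33.8 against 18.7 and 17.0 CPM (-0.79 ± 0.19, adjusted p 0.0557) and Mcm5 at 110.2 and 111 against 65.2 and 64.8 CPM (-0.77 ± 0.19, adjusted p 0.0597). Pcna and E2f1 had smaller estimates, Pcna at 260.4 and 269 against 215 and 195 CPM (-0.37 ± 0.20, adjusted p 0.343) and E2f1 at 31.7 and 31.8 against 22.7 and 24.2 CPM (-0.43 ± 0.18, adjusted p 0.227). Lower, non-overlapping groups were found for 42 of the 44 genes, beside 33.2% of all genes. By role, 3 of 10 licensing, 3 of 7 firing, 1 of 13 synthesis, 2 of 5 nucleotide and 4 of 5 chromatin and repair genes were called, and none of the 4 E2F and cyclin E genes. Of the mitosis genes 27 of 30 fell, with a median of -0.88, and 8 of the 42 further replication genes fell. The count of called members depended on the estimate of spread. A fit of these 2 groups alone called 40, beside 25.2% of all genes in either direction, and DESeq2 called 23 (8.68%). A fit without 1 of the 4OHT libraries leaves 1 library in a group. There the calls of members were lost, as were nearly all calls in the table. With each library left out in turn the median stayed between -0.60 and -0.56.

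The difference between the responses after 4OHT and after ethanol was below 0 for all 44 genes, beside 52.6% of all genes, with a median of -0.59. None was called by edgeR's quasi-likelihood test, nor was any other gene (0%), and the smallest adjusted p among the members was 0.541. At an unadjusted p under 0.05 there were 26 members, beside 4.70% of all genes in that direction, and DESeq2 called 3, beside 0.233% of all genes in either direction. The smallest p values belonged to Cdca7l (-0.93 ± 0.17), Clspn (-1.30 ± 0.25), Uhrf1 (-0.96 ± 0.20) and Mcm10 (-0.88 ± 0.20), each with an adjusted p of 0.541. The response of these genes to MRTX1133 is therefore not shown to differ between ethanol and 4OHT organoids at this threshold.

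**Figure D4:**
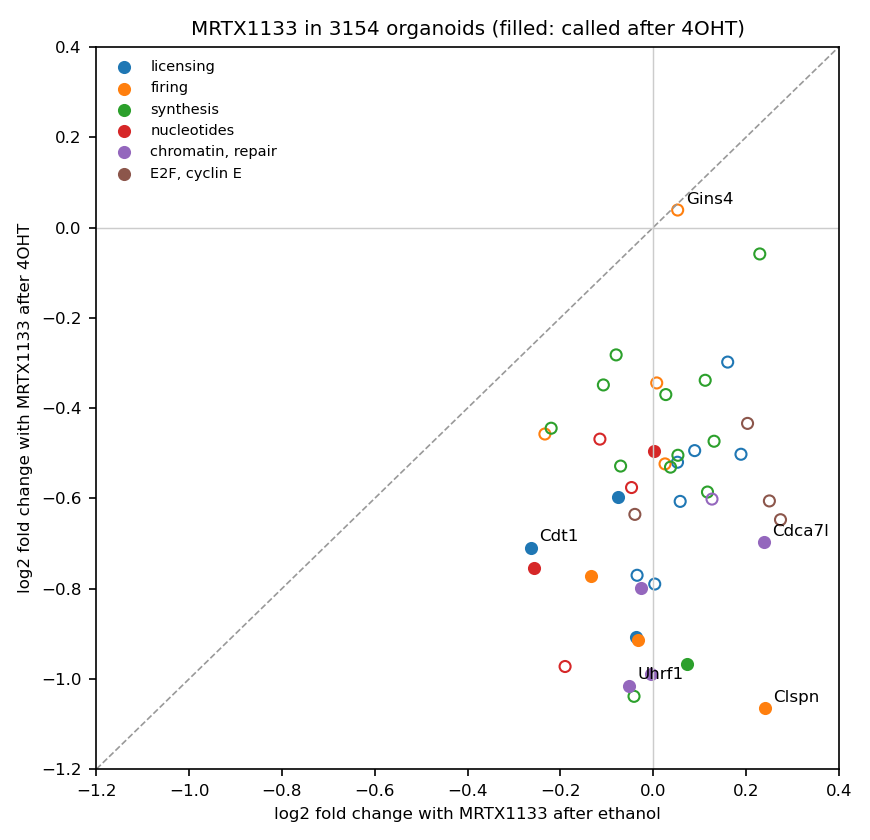
Log2 fold change of the 44 genes with MRTX1133 in 3154 organoids after ethanol (x axis) and after 4OHT (y axis), coloured by role and filled where called after 4OHT, with a dashed line of equal change. All 44 points lie below the line, and Gins4, with a difference of -0.01, lies closest to it.

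The change after 4OHT, which left Hnf4a at the levels given above, was measured in 3 comparisons. Under vehicle in the 48-hour experiment 2 members were called higher and 1 lower, beside 31.0% of all genes called in either direction, and the median was 0.20. Clspn rose from 19.2 and 17.5 to 33.8 and 28.4 CPM (0.76 ± 0.17, adjusted p 0.0130) and Uhrf1 from 53.5 and 47.4 to 67.0 and 70.1 CPM (0.44 ± 0.14, adjusted p 0.0459), while Cdca7l fell from 56.5 and 53.0 to 42.5 and 39.9 CPM (-0.41 ± 0.12, adjusted p 0.0358). Around the members, Cdkn1a, the CDK inhibitor p21, fell by 2.48 on the log2 scale and Ccnd1, cyclin D1, rose by 1.31. DESeq2 called 5, beside 31.7% of all genes called in either direction. With only the 2 groups compared 1 was called (20.1%), and Uhrf1 and Cdca7l lost their calls. Fits without 1 library leave 1 library in a group. Without a 4OHT library fewer members and fewer of all genes were called, and without ethanol vehicle replicate 2 more of both. The median turned to -0.01 without ethanol vehicle replicate 1.

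Under MRTX1133 the same deletion lowered 16 members and raised none, beside 14.5% of all genes called lower, with a median of -0.48. Cdca7l went from 65.3 and 63.8 to 24.7 and 26.2 CPM (-1.34 ± 0.12, adjusted p 0.000414), E2f2 from 16.8 and 19.1 to 9.07 and 9.33 CPM (-0.96 ± 0.16, adjusted p 0.00387), Cdt1 from 58.1 and 52.3 to 32.4 and 31.2 CPM (-0.80 ± 0.12, adjusted p 0.00312) and Pola1 from 36.4 and 36.3 to 20.5 and 22.5 CPM (-0.76 ± 0.17, adjusted p 0.0148). None of these groups overlapped. Cdca7l was called lower on deletion under vehicle and under MRTX1133, whereas Uhrf1 was called higher under vehicle and lower under MRTX1133 (-0.52 ± 0.14, adjusted p 0.0294). The vehicle calls of both genes were lost with only the 2 groups compared and with the replicate block. In Cdca7l, 22.4% of exon bases lie opposite another gene. Mitosis genes fell in 23 of 30 cases and further replication genes in 15 of 42. Fits without 1 library leave 1 library in a group. Fewer members and fewer of all genes were called without an ethanol MRTX1133 or a 4OHT library. More of both were called without an ethanol vehicle library. The median stayed between -0.48 and -0.40. The 4OHT MRTX1133 libraries enter this comparison and that of MRTX1133 after 4OHT, so the falls in both rest on the same 2 libraries.

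At 2 weeks, 1 member was called: Cdc6 rose after 4OHT from 16.0 and 11.2 to 39.6 and 27.9 CPM (1.31 ± 0.26, adjusted p 0.0375), beside 9.81% of all 14492 genes called in either direction and 4.03% called higher. Estimates were above 0 for 40 of the 44 genes, beside 51.7%, with a median of 0.58, and 18 reached an unadjusted p under 0.05, beside 28.7% of all genes. The control libraries stood apart: the 44 genes summed to 2265 and 1633 CPM after ethanol and to 3136 and 2326 CPM after 4OHT. Mcm5 stood at 63.1 and 28.5 against 132 and 72.2 CPM (1.15 ± 0.44, adjusted p 0.157), Uhrf1 at 54.5 and 33.5 against 99.0 and 75.6 CPM (0.99 ± 0.27, adjusted p 0.0764) and Brca1 at 21.6 and 11.99 against 37.2 and 29.9 CPM (0.99 ± 0.30, adjusted p 0.102). Rrm2 overlapped between groups at 59.9 and 19.5 against 92.3 and 47.5 CPM, and Pcna stood at 257 and 246 against 311 and 259 CPM (0.18 ± 0.14, adjusted p 0.428).

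Estimates below 0 at 2 weeks included those of E2f2, at 18.2 and 13.3 against 13.1 and 10.0 CPM (-0.45 ± 0.25, adjusted p 0.289), and Pola2, the second subunit of polymerase alpha, named after its values were seen, at 73.6 and 77.7 against 55.3 and 50.4 CPM (-0.52 ± 0.13, adjusted p 0.0636). Of 30 mitosis genes the kinetochore gene Ndc80 rose (1.17), with a median of 0.71 over the list, and of 42 further replication genes Pold4, the small subunit of polymerase delta, fell (-1.36). The entry inhibitors Cdkn1c (-2.18) and Rb1 (-1.37) fell. The leukocyte marker sum stood at 18.4 to 44.6 CPM after ethanol, mostly Csf1r at 13.2 and 38.1 CPM, and at 9.91 to 13.3 CPM after 4OHT, with Csf1r at 3.45 and 5.14 CPM. Cd68 stood at 5.11 and 6.24 against 6.30 and 7.76 CPM, and the endothelial marker Pecam1 fell from 5.93 and 5.03 to 2.04 and 2.21 CPM (adjusted p 0.0394). The part of these markers in the result was not tested. Fits without 1 library leave 1 library in a group. Without ethanol replicate 1 more members and more of all genes were called. Without either 4OHT library the call of Cdc6 was lost, with fewer calls over all genes. With each library left out in turn the median ran from 0.30 to 0.92. DESeq2 called 8, beside 15.9% of all genes called in either direction.

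Raising HNF4A in H1651 with doxycycline, from 47.1 and 35.9 to 94.4 and 96.8 CPM, left all members uncalled by edgeR's quasi-likelihood test, beside 1.42% of 17351 genes called. An unadjusted p under 0.05 was reached by 1 member, beside 12.7% of all genes, DESeq2 called 0, and the median was 0.03. CDCA7L had the lowest estimate, at 6.02 and 5.42 CPM without doxycycline and 4.48 and 4.02 CPM with it (-0.43 ± 0.18, adjusted p 0.395). Among entry regulators CDKN1A (0.94) and CCND1 (0.42) rose. Of the epithelial markers KRT8 (0.44) and KRT18 (0.42) were called higher and the others were not called. Fibroblast markers summed to 663 to 757 CPM without doxycycline and 413 to 455 CPM with it. Among them COL3A1 was called lower (-0.84) and no other tested marker was called. The part of these markers in the result was not tested.

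**Figure D5:**
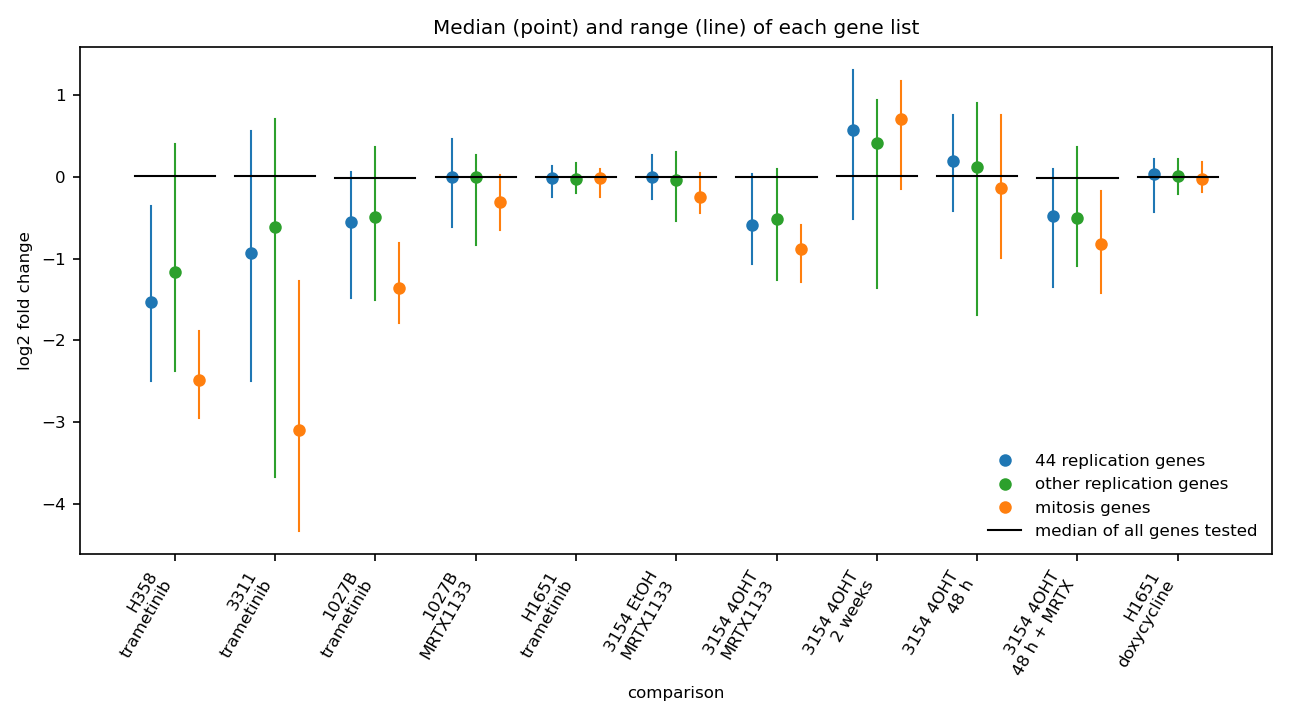
Median (point) and range (line) of the log2 fold changes of the 44 replication genes, 42 further replication genes and 30 mitosis genes in each comparison, with a black line at the median of all genes tested. In H358, 3311 and 1027B with trametinib the mitosis median lies at -2.48, -3.10 and -1.35 and that of the 44 genes at -1.53, -0.93 and -0.55.

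Across the 7 comparisons of an inhibitor with its vehicle, 8 of the 44 genes were called lower in 4, 9 in 3, 16 in 2, 10 in 1 and 1 in none, and no member was called higher in any. Of the 9646 symbols tested in all of these comparisons, 1.92% were called lower in 4, 5.20% in 3, 9.94% in 2, 27.8% in 1 and 54.9% in none. The 8 were Uhrf1, Mcm10, Mcm3, Pola1, Cdc45, Tk1, Cdt1 and Mcm7, which were called in H358, 3311, 1027B with trametinib and 3154 with MRTX1133 after 4OHT. The member called in none was Ccne2, and both sets were named after their values were seen. The 1027B comparisons share their vehicle libraries, and groups of the 48-hour table share 1 estimate of the spread, so these counts are not 7 independent measurements. Members with an E2F match in the window had a median change of -1.16 in 3311, against -0.78 for the 22 without, and of -0.68 against -0.51 in 1027B with trametinib. In the other 8 mouse comparisons the 2 medians lay closer to each other, at 0.60 against 0.56 after 4OHT at 2 weeks, -0.64 against -0.55 for MRTX1133 after 4OHT, 0.27 against 0.17 after 4OHT under vehicle and 0.53 against 0.56 between the drugs in 1027B. These medians are a description with no test. Of the matched genes shown above, Rfc3, named after its values were seen, had estimates of 0.05 in 3311 and 0.07 in 1027B with trametinib.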

How the data were processed

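The authors deposited raw read counts per gene in 7 tables, with 1 column for each library; per the labels' protocols, poly(A) RNA was made into stranded libraries. The submitters' processing notes list cutadapt 3.5, STAR 2.7.6a and featureCounts 1.6.3 and the builds mm10, mm39 and hg38, with no role or table. Columns of the 3311 table name only treatment and replicate and were assigned from the name of the table. The members and lists (42 further replication genes, 30 mitosis genes, 29 entry regulators, cell type markers) were chosen with earlier results of these data known; the ERK feedback list was added later still.

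Tests used edgeR 4.0.16 under R 4.3.3 (filterByExpr, TMM, quasi-likelihood F-test) within a table, and on the joined human tables for the difference between H1651 and H358. CPM use TMM-scaled library sizes. RPKM divide by GENCODE M21 exon length. On simulated counts with known changes, the share of unchanged genes among the calls exceeded 0.05 in every comparison, by the most with doxycycline and at 2 weeks. Named genes were a fixed set of 15 members, the called members with the largest changes, the 4 smallest p values in tests of a difference, and up to 3 called genes of each other list. Alternatives were DESeq2 1.42.0, RLE scaling, no filter, at least 10 counts in every library, the replicate block, fewer groups, and each library left out.

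The labels do not say that a replicate number marks a shared culture. Same-numbered libraries deviated together in all 3 pairs of groups of 1027B (correlations over genes of 0.299, 0.456 and 0.508), so blocked counts stand beside the results of 1027B. The tables of 2 groups give a single pair each (0.166 to 0.732), too few to settle the pairing, and the 48-hour 3154 table held pairs below 0. Genes with no symbol held at most 0.578% of a table's counts. Position, length and overlap come from GENCODE M21 (GRCm38), promoter sequence from RefSeq (GRCm38.p6), where 37 of 44 members matched and a gene with several starts counts as matched when any of them holds the motif; no coordinate of the files was used. Some alleles and genes are not reported here.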

Additional observations from a re-analysis of the deposited data

Results flagged for a closer look

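The response to 20 nM trametinib differed between H1651 and H358 by a test of the difference itself. In that test 40 of the 44 genes were called, all with the higher change in H1651, beside 9.86% of 21188 genes called in that direction. The 4 named differences were 1.91 for PRIM1, 1.75 for BRCA1, 1.81 for RFC4 and 1.44 for POLD1 on the log2 scale.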

How the results depend on the processing

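With 2 libraries a group, counts of called members moved with the estimate of the spread. No median moved by more than the spread between replicate libraries (1 SD) under an alternative that kept both libraries of the groups compared. Such alternatives start from the same counts of these libraries, so their medians could move little. Shares in parentheses are of all genes called in either direction. DESeq2 called 8 members on Hnf4a deletion at 2 weeks (15.9%), 8 for MRTX1133 against trametinib in 1027B (4.89%), 23 for MRTX1133 after 4OHT (8.68%), 5 on deletion under vehicle (31.7%) and 3 for the difference between the 3154 responses (0.233%). A fit of only the 2 groups compared called 40 for MRTX1133 after 4OHT (25.2%) and 1 on deletion under vehicle (20.1%). With the replicate number as a block, 32 members were called on deletion at 2 weeks (31.5%), 3 with doxycycline (17.6%), 33 with trametinib (44.9%), 3 with MRTX1133 (24.1%) and 30 between the drugs (14.1%) in 1027B, and 2 with trametinib in H1651 (10.3%); outside 1027B libraries share only a number (correlations from -0.368 to 0.732). The other 64 counts under these alternatives stayed within 1.5 times, and the cause of the rest was not tested.

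With each library left out in turn, the called count and the median ran as follows. Each such fit leaves a single library in a group. Where members were called, the share of all genes called also changed between these fits. Outside H358, the fit with the fewest called members also called fewer of all genes than the fit with the most. The ranges of counts therefore do not describe the members apart from their table. On deletion at 2 weeks they were 0 to 23 and 0.30 to 0.92, under vehicle at 48 hours 0 to 19 and -0.0082 to 0.39, and under MRTX1133 3 to 24 and -0.48 to -0.40. With trametinib they were 42 to 44 and -1.80 to -1.27 in H358, 19 to 29 and -0.98 to -0.82 in 3311, and 3 to 25 and -0.77 to -0.36 in 1027B. For MRTX1133 after 4OHT they were 0 to 26 and -0.60 to -0.56, and for H1651 against H358 31 to 43 and 1.26 to 1.69. Counts were 0 throughout for the rest, with medians of -0.12 to 0.10 for MRTX1133 in 1027B, 0.37 to 0.71 between the drugs, -0.10 to 0.071 for trametinib in H1651, 0.028 to 0.063 with doxycycline, -0.16 to 0.21 for MRTX1133 after ethanol and -0.82 to -0.46 for the difference between the 3154 responses.

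Of the named values, 15 changed sign, all with a library left out and all uncalled. Their ranges were -0.12 to 0.30 for E2f2 in 3311 (also -0.09), -0.24 to 0.15 for Ccne1 with trametinib and -0.25 to 0.15 for Mcm5 with MRTX1133 in 1027B, and -0.30 to 0.30 for Mcm5 and -0.14 to 0.037 for Uhrf1 with MRTX1133 after ethanol. In H1651 with trametinib they were -0.35 to 0.0050 for UHRF1, -0.12 to 0.14 for RRM2 (also 0.10), -0.063 to 0.071 for PCNA (also -0.006), -0.20 to 0.081 for MCM5 (also 0.07) and -0.23 to 0.086 for CDC6 (also 0.04). The call of Tyms with trametinib in 1027B was lost under RLE scaling, without the filter and with only the 2 groups compared, and that of Uhrf1 on deletion under vehicle was lost under these and the block. That of Cdca7l was lost with the block and with only the 2 groups compared.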
